A study of Homo sapiens with 13 samples.

Results

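The control tumours of this series were profiled in 2 ways, and they are compared here with each other. Both kinds carried an empty vector in BM1, a bone-seeking derivative of the human triple-negative breast cancer line MDA-MB-231, and neither kind received a transgene. The 5 members numbered 801, 803, 804, 813 and 815 are whole CTRL tumours: BM1 cells with the lentiviral vector pLV-EF1a-IRES-Hygro grew for 4 weeks in athymic nude mice from Charles River, and RNA was extracted from homogenised tumour. The other 3 members are CTRL tumours taken apart into single cells: BM1-VC cells, prepared beside cells with the RKIP S153E mutant, grew for 3 weeks in athymic nude mice from Harlan Envigo. Those tumours were dissociated, mouse cells and dead cells were removed, and the remaining cells were captured on a Fluidigm C1 chip. In both experiments 1000000 cells were placed in the mammary fat pad. The members are therefore 8 of the 16 tumours of the series, and the 3 single-cell tumours hold 772 of its 1569 cells (247, 267 and 258). The single-cell tumours were told apart by the ending of the cell names (1, 2, and none, here called 3), and their counts were summed over cells. The 8 other tumours, 5 with KMT5C and 3 with RKIP S153E, served for a repeat of the comparison. GEO's labels name 1 single-cell sample per replicate for the CTRL and RKIP tumours together, so the single-cell side of the repeat comes from the same 3 GEO samples and is not independent. Week, mouse supplier, cell preparation, dissociation, depletion, library chemistry and the authors' gene annotation all changed together with the table, so they cannot be told apart in any difference below.

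A whole xenograft contains human tumour cells together with mouse fibroblasts, vessels and immune cells, whereas depletion keeps the human cells. Transcripts are read differently as well: single-cell chemistries usually capture the poly(A) end of a transcript, while bulk libraries often read along its length. Several gene classes are known to be sensitive to such handling, among them immediate-early genes, which are transcribed within minutes of a stimulus, and replication-dependent histone genes, whose mRNAs end in a stem-loop in place of a poly(A) tail. In bulk samples, fewer cells of a type and less RNA per cell cannot be told apart.

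The whole tumours held 41665268 to 48003278 counts and 27100 to 28711 genes with a count. The single-cell tumours held 19516061 to 29793814 counts in sum, with 14644 to 14997 genes with a count, and median cells of 95289, 55704 and 66420.5 counts. Of the 15005 genes in the single-cell table, 14460 (96.4%) were matched to a gene of the bulk table, and 13926 of them passed the filter on low counts and were tested. Levels of shared genes are given as CPM, counts scaled to 1000000 shared-gene counts per tumour with a factor for composition. Log2 differences are whole tumours minus single-cell tumours, so a negative value means higher in the single-cell tumours. A gene was called different at a Benjamini-Hochberg adjusted p below 0.05 in edgeR's quasi-likelihood test together with a difference of at least 4-fold. Values after ± are SD over 5 whole or 3 single-cell tumours unless SE is written.

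Within each table the tumours ranked their genes almost alike, and between the tables the ranking was looser. Spearman's rho over the 13926 genes was 0.989 to 0.997 in the 10 pairs of whole tumours and 0.930 to 0.951 in the 3 pairs of single-cell tumours. Between the tables it was 0.753 to 0.784, with a median of 0.777 over 15 pairs. These coefficients run across genes within pairs of libraries, and pairs share tumours. Single-cell tumour 1 stood slightly apart, at 0.753 to 0.759 with the whole tumours, whereas tumours 2 and 3 reached 0.777 to 0.784 and 0.774 to 0.782. Among the 500 genes with the highest CPM in each table, 258 (51.6% of each list) were in both, and among the top 10 only ENO1 was. As a percentile rank, 6835 genes (49.1%) stood at least 10 points apart and 299 (2.15%) at least 50 points apart, 147 of them higher in the whole tumours and 152 in the single-cell tumours. Tested with limma on these ranks, 3122 genes (22.4%) had an adjusted p below 0.05 and a shift of at least 20 points, 1578 toward the whole tumours and 1544 toward the single-cell tumours.

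**Figure D1:**
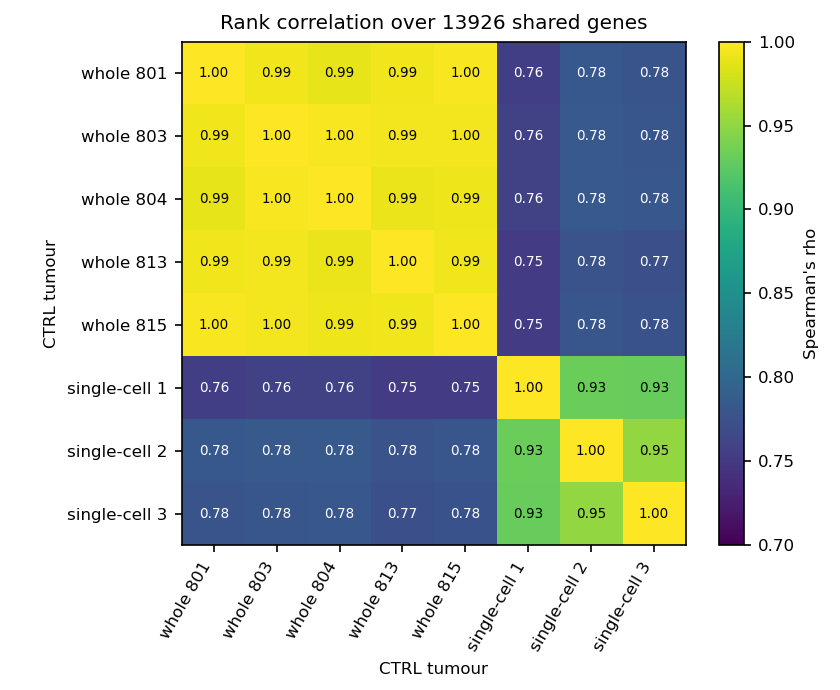
Spearman's rho between each pair of the 8 CTRL tumours over 13926 shared genes, with colour from 0.7 to 1. The 2 tables form separate blocks: within them rho is at least 0.930, and between them it is at most 0.784.

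Of the 13926 genes, 3292 (23.6%) were called different: 1244 (8.93%) were higher in the whole tumours and 2048 (14.7%) in the single-cell tumours. Part of these calls follows from the filter on low counts: 771 tested genes did not reach its limit of 0.252 CPM in 3 whole tumours and so passed through the single-cell tumours, and 733 of the 2048 calls are among them. Of the other 13155 genes, 1315 (10%) were called higher in the single cells. In reverse, 1057 genes did not reach the limit in all 3 single-cell tumours, with 231 of the 1244 calls. Without the 4-fold limit, 9277 (66.6%) passed an adjusted p of 0.05. Every whole tumour lay above every single-cell tumour for 4521 genes (32.5%), and the reverse held for 4396 (31.6%). The direction of the split depended on the scaling: without a composition factor, which moved the median of all genes from -0.04 to 0.43, 1986 genes were higher in the whole tumours and 1579 in the single-cell tumours. Protein-coding genes alone split the other way, with 1138 (9.86%) of 11547 higher in the whole tumours and 880 (7.62%) in the single-cell tumours. The comparison was repeated in the 5 KMT5C whole tumours and 3 RKIP single-cell tumours, which come from the same tables and, for the single cells, from the same 3 GEO samples. There 934 (75.1%) of the 1244 genes and 1672 (81.6%) of the 2048 genes were called in the same direction, and 0 in the opposite one; 136 of the 2048 were not tested. The background rates in that repeat were 9.16% and 15.4%.

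**Figure D2:**
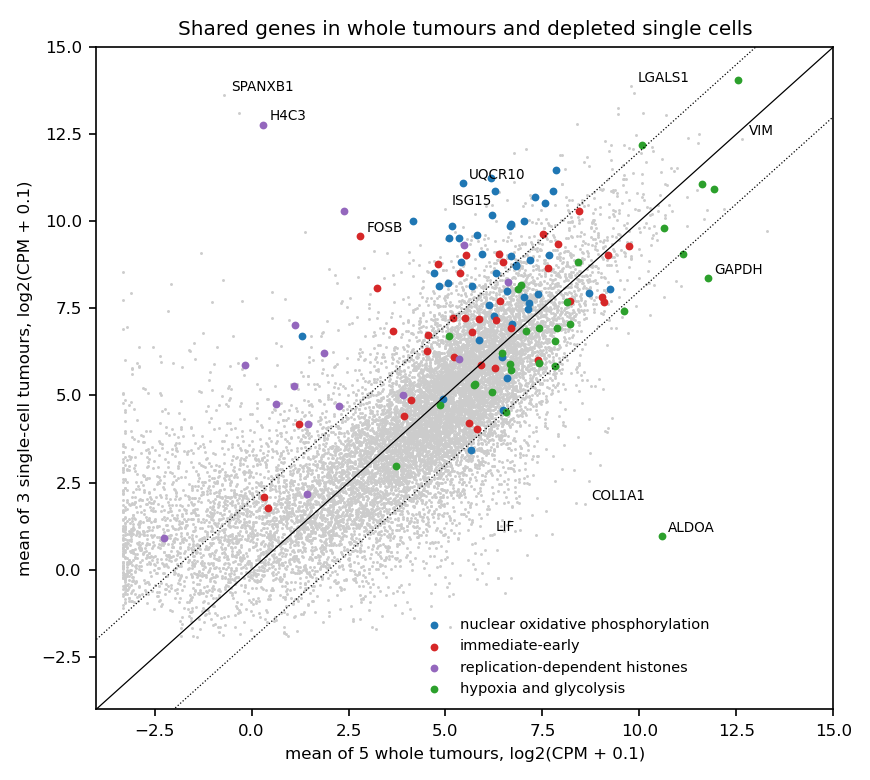
Each point is 1 of 13926 shared genes, placed by log2(CPM + 0.1) of its mean in 5 whole tumours (horizontal) and in 3 single-cell tumours (vertical); the solid line marks equal levels and the dotted lines 4-fold. Most nuclear oxidative phosphorylation and replication-dependent histone genes lie above the solid line, and GAPDH, ALDOA, COL1A1 and LIF lie far below it.

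Genes that mark the MDA-MB-231 line were present in all 8 tumours. Of the 12 genes listed for that identity 1 was called, higher in the single cells (8.33%, against 14.7% of all genes), and the median log2 difference was 0.43. VIM, the intermediate filament of mesenchymal cells, stood at 5782, 6746, 6975, 7437 and 5321 CPM in the whole tumours and 4929, 5586 and 5221 CPM in the single-cell tumours, and its range overlapped between the tables. The hyaluronan receptor CD44 (645 ± 50.2 against 503 ± 74.8 CPM) and the receptor EGFR (424 ± 59.7 against 225 ± 5.26 CPM) were not called. LGALS1, which encodes the galactoside-binding lectin galectin-1, was the called member, at 738, 968, 1037, 893 and 797 CPM in the whole tumours and 13871, 16430.4 and 14592 CPM in the single-cell tumours; its log2 difference was -4.08 ± 0.13 (SE, adjusted p = 3.85e-09). Of 12 luminal and epithelial genes that the line carries at low level, 5 were tested. The genes ERBB2 (75.9 against 9.02 CPM) and CLDN7 (46.9 against 7.66 CPM) were called higher in the whole tumours (40%, against 8.93% of all genes). Neither is among the 2 tested genes of the list that neither overlap other genes nor share sequence with them. The median of those 2 was -0.36. In the repeat 2 genes of the list were called higher in the whole tumours and 1 in the single cells. The proteins KMT5C and RKIP (gene PEBP1) give the 2 experiments their names. KMT5C, an H4K20 methyltransferase, was called higher in the whole tumours (8.55 against 1.4 CPM), and PEBP1 was not called (263 ± 22.2 against 404 ± 64.1 CPM). On a list of H4K20 enzymes and metastasis regulators, 3 of 10 tested genes (30%, against 8.93% of all genes) were called higher in the whole tumours. KMT5C and MAP2K1 were among the 3, and 0 were called higher in the single cells (median 1.12).

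A group of immediate-early genes, led by FOSB and ATF3, was higher in the single cells than in the whole tumours, and no gene of the list was called the other way. Of 39 genes listed, 37 were tested, and 12 (32.4%, against 14.7% of all genes) were called higher in the single-cell tumours; the median log2 difference was -1.34, against -0.04 over all genes. Without the composition factor 8 were called higher in the single cells and 1 in the whole tumours. For 23 of the 37, every single-cell tumour lay above every whole tumour, and for 6 the order was reversed. Over all genes tested these orders held for 31.6% and 32.5%. FOSB, a subunit of the AP-1 transcription factor, stood at 6.14, 6.77, 6.85, 8.73 and 5.91 CPM in the whole tumours and 736, 778 and 789 CPM in the single-cell tumours. The 2 sets did not overlap, and the log2 difference was -6.80 ± 0.16 (SE, adjusted p = 8.74e-10). ATF3, a stress-induced transcription factor, stood at 8.3, 10.8, 10.6, 10.3 and 6.6 CPM in the whole tumours and 226, 254 and 335 CPM in the single-cell tumours, with a log2 difference of -4.87 ± 0.20 (SE, adjusted p = 1.90e-08). For EGR1, a zinc-finger factor induced by growth factors, the values were 46.5, 38.7, 59.7, 47 and 38.9 CPM in the whole tumours and 633, 470.4 and 471 CPM in the single-cell tumours. Every single-cell tumour was several-fold above every whole tumour for both genes.

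FOS, the partner of JUN in AP-1, had 28.1 ± 14.5 against 436 ± 25.8 CPM and a log2 difference of -3.96 ± 0.33 (SE, adjusted p = 2.23e-06). JUN itself had 182 ± 25 against 799.8 ± 215 CPM and -2.13 ± 0.18 (SE, adjusted p = 2.28e-06), and was not called without single-cell tumour 1 (-1.93). The orphan nuclear receptor NR4A2, the stress gene GADD45B and NFKBIA, which encodes the inhibitor of NF-κB, were also called, at -3.22, -3.16 and -2.68 on the log2 scale. NR4A1 was called too, although its values overlapped between the tables (2.53, 2.17, 2.47, 2.12 and 1.88 CPM in the whole tumours and 1.73, 39.5 and 13.4 CPM in the single-cell tumours); without single-cell tumour 2 its log2 difference was -1.75 and it was not called. The list did not move as one. SOCS3, a feedback inhibitor of cytokine signalling, stood at 49.8, 51.1, 57.8, 63.7 and 60.5 CPM in the whole tumours and 14, 11.3 and 24.2 CPM in the single-cell tumours, with every whole tumour higher, but below the 4-fold limit; without single-cell tumour 3 it was called (2.16). MCL1 (526 against 226 CPM) and ZFP36L1 (548 against 205 CPM) had the same order and were not called either. In the repeat with the KMT5C and RKIP tumours, 11 of the list were called higher in the single cells and 0 in the whole tumours, with a median of -1.36. Removing mouse cells and dissociating the tumour were steps of the single-cell arm alone, and their part in these values was not tested.

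Immediate-early promoters are known for cyclic AMP response elements and serum response elements. Of the 2 called genes shown here, EGR1 carries letters of both kinds and FOSB only those of the first. The sequences are 300 bases from RefSeq (GRCh38.p14), from 250 bases before to 50 after the gene's start, both on the plus strand: EGR1 at chr5:138465229-138465528 and FOSB at chr19:45467746-45468045. Capitals mark each TGACGT, read on either strand, and each CArG box, the core of a serum response element.
EGR1: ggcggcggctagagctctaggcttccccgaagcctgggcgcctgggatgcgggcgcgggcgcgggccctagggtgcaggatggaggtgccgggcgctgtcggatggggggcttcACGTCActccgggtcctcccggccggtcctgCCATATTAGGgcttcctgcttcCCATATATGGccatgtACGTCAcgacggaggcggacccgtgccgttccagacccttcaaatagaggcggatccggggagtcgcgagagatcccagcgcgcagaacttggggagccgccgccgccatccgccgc
FOSB: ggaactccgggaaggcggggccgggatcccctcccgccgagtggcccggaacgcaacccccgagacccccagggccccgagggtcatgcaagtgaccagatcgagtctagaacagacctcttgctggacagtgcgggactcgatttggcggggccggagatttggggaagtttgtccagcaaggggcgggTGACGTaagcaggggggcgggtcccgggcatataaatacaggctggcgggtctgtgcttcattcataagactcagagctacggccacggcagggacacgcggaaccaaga
The EGR1 promoter holds 2 TGACGT matches and 2 CArG boxes, and the FOSB promoter 1 TGACGT match. Of the 29 immediate-early genes with a promoter in the RefSeq table, 9 (31.0%) held TGACGT on either strand, against 2633 (9.64%) of 27305 genes in it. A CArG box was found in 2 of the 29 and in 438 (1.6%) of the 27305. ZFP36L1, which was not called and was higher in every whole tumour, also held 2 TGACGT matches. These matches describe letters in a window, were not compared with the calls and say nothing of binding.

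**Figure D3:**
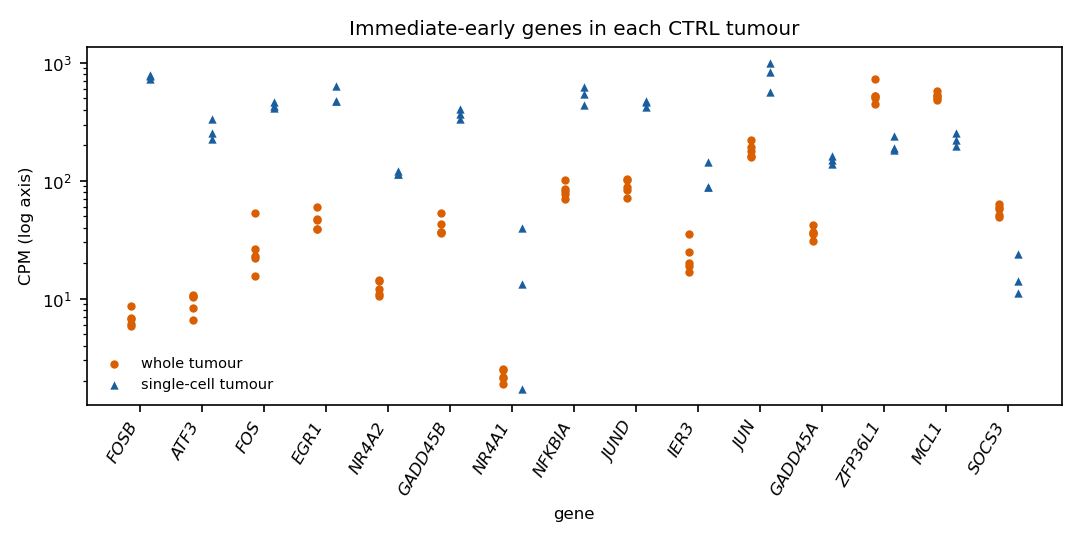
CPM (log axis) of 15 immediate-early genes in each CTRL tumour, with circles for 5 whole tumours and triangles for 3 single-cell tumours. The first 12 genes were called higher in the single-cell tumours; in NR4A1 the groups overlap, and for ZFP36L1, MCL1 and SOCS3 every whole tumour is higher.

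Secreted inflammatory factors were called in both directions. Among 17 cytokine and NF-κB genes tested of 23 listed, 4 (23.5%, against 14.7% of all genes) were called higher in the single cells and 3 (17.6%, against 8.93%) in the whole tumours, and the median log2 difference was 0.14. The neutrophil-attracting chemokine CXCL2 stood at 4.66, 4.64, 5.61, 5.15 and 4.25 CPM in the whole tumours and 209, 156 and 234 CPM in the single-cell tumours. Its relatives CXCL3 (log2 difference -4.97) and CXCL1 (-3.62), and the cytokine IL6 (3.41 ± 0.677 against 50.1 ± 54.7 CPM), were called in the same direction. LIF, a cytokine of the IL6 family, went the other way, at 68.8, 70.1, 68.2, 72 and 71.8 CPM in the whole tumours and 0.182, 3.92 and 1.61 CPM in the single-cell tumours; its log2 difference was 5.27 ± 0.60 (SE, adjusted p = 2.27e-05). CSF2 (2.34), which encodes GM-CSF, was also called higher in the whole tumours, as was the NF-κB subunit gene NFKB2 at the limit of 2 (log2 difference 2.0, and 1.67 without single-cell tumour 2). The EGF receptor ligand AREG had 1.45 ± 0.310 against 90.3 ± 27.2 CPM and a log2 difference of -5.96 ± 0.26 (SE, adjusted p = 2.25e-08). The 4 called chemokines and cytokines and AREG were higher in the single-cell tumours, while LIF and CSF2 were lower there. LIF lay below the limit of the filter on low counts, 0.252 CPM, in single-cell tumour 1 (0.182 CPM). It passed the filter through the whole tumours alone, and it is 1 of the 3 calls in that direction. The part of dissociation in these values was not tested.

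Nuclear genes of the respiratory chain and ATP synthase formed the pathway list with the largest share of calls among those with at least 20 genes tested. Of 45 nuclear-encoded oxidative phosphorylation genes, 25 (55.6%, against 14.7% of all genes) were called higher in the single cells and 1 in the whole tumours; the median log2 difference was -2.45. UQCR10, a small subunit of complex III, stood at 37, 46.8, 51.3, 43.7 and 39.5 CPM in the whole tumours and 2030.1, 2128 and 2419.8 CPM in the single-cell tumours. Every single-cell tumour lay above every whole tumour, and the log2 difference was -5.65 ± 0.14 (SE, adjusted p = 1.09e-09). ATP5ME of the ATP synthase (17.8 ± 3.63 against 1027 ± 23.7 CPM), COX5B of complex IV (77.2 ± 9.91 against 1864 ± 67.2 CPM) and NDUFB10 of complex I (40.9 ± 4.9 against 726 ± 146 CPM) were called the same way. ATP5F1B, the catalytic beta subunit of ATP synthase, was not called (602 ± 38.3 against 264 ± 35.3 CPM), and SDHC of complex II was called higher in the whole tumours (50 ± 1.46 against 10.7 ± 7.01 CPM), though not without single-cell tumour 1 (log2 difference 1.85). Gene length moved with this result: the median exonic length of the list was 2322 bases, against 4656 over all genes tested. With a term for length in the fit, 21 of the 45 were called higher in the single cells and the list's median was -1.69, against -0.12 over all genes.

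Cytosolic ribosomal protein genes had a median log2 difference of -1.39, and 20 of 79 (25.3%, against 14.7% of all genes) were called higher in the single cells against 2 in the whole tumours. Together they took 47065 to 62148 CPM of all counts in the whole tumours and 110264 to 138810 CPM in the single-cell tumours. RPL35 of the large subunit stood at 270.0, 381, 416, 328 and 294 CPM in the whole tumours and 7055, 7421 and 6950.2 CPM in the single-cell tumours, with no overlap. RPS27A, a ribosomal protein made as a ubiquitin fusion, had 703 ± 126 against 9672 ± 4354 CPM. RPL30, by contrast, was called higher in the whole tumours (302 ± 41.7 against 49.7 ± 8.99 CPM), and 57 of the 79 genes were not called. Many of these genes have processed pseudogenes that can take or lose reads, and no label or header says how such reads were treated. Of 30 proteasome subunit genes, 7 (23.3%, against 14.7% of all genes) were called higher in the single cells, led by the beta subunit PSMB1 (146 ± 15.9 against 1621 ± 1037 CPM). PSMD3 of the regulatory particle was the 1 called higher in the whole tumours (173 ± 10.4 against 27.6 ± 3.64 CPM). The proteasome count was 4 without single-cell tumour 1 and 2 without the composition factor, which brought the ribosomal count to 12.

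Replication-dependent histone genes had the lowest median of the lists with at least 10 genes tested. Of 42 such genes, 15 were tested, and 11 (73.3%, against 14.7% of all genes) were called higher in the single cells and 0 in the whole tumours, with a median log2 difference of -4.0; 12 others were listed only in the single-cell table, 7 only in the bulk table and 8 in neither. One of the 11, H4C11, passed the filter through the single-cell tumours alone; 10 of the other 14 were called. H4C3, which encodes histone H4, stood at 0.447, 0.627, 0.795, 0.973 and 2.84 CPM in the whole tumours and 5461, 7643 and 7895 CPM in the single-cell tumours, and its log2 difference was -12.60 ± 0.57 (SE, adjusted p = 3.27e-08). The linker histone H1-4 stood at 2.93, 4.24, 4.33, 4.55 and 9.67 CPM in the whole tumours and 1438, 1164 and 1139 CPM in the single-cell tumours. Both genes were highest in whole tumour 815 among the whole tumours, and every single-cell tumour lay far above it. H1-2 (44.6 ± 5.57 against 633 ± 56.3 CPM) and H2BC4 (2.06 ± 1.04 against 131 ± 131 CPM) were called in the same direction. The histone genes that are expressed outside S phase and carry poly(A) tails gave another picture: 0 of 10 tested were called higher in the single cells, the median was 0.06, and H3-3A, a histone H3.3 gene, was called higher in the whole tumours (97.9 ± 5.43 against 3.78 ± 1.06 CPM). With the length term, 9 of the 15 replication-dependent genes were called and their median was -2.59. Of the 10 genes expressed outside S phase, 2 were then called higher in the single cells and 2 in the whole tumours, with a median of 0.16. The contrast in calls was thus weaker with that term. In the repeat 9 replication-dependent genes were called, with a median of -3.16.

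The 3′ stem-loop that sets these histone mRNAs apart could be read in 5 of the 15 tested genes. Each line gives 26 bases of a GENCODE 29 transcript, 5′ to 3′, with the stem-loop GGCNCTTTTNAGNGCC (transcript strand only) in capitals.
H2BC4: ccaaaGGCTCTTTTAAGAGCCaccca
H2BC5: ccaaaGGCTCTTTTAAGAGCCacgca
H2BC15: acaacGGCTCTTTTCAGAGCCaccta
H4C8: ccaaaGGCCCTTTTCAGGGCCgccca
H4C11: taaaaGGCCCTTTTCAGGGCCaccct
Within the last 200 bases of a transcript the motif was found in 19 (0.0324%) of 58676 annotated genes and in 8 (23.5%) of the 34 replication-dependent histone genes with a transcript there. Of these 5 genes, H2BC4, H2BC15, H4C8 and H4C11 were called higher in the single cells (-5.99, -2.78, -2.45 and -4.0) and H2BC5 was not (-1.12); without single-cell tumour 1, H4C8 was not called either (-1.98). H4C11 rests on few reads in the whole tumours (0.109 CPM) and has near-identical copies, so its value is uncertain. No full match to the motif was found in the last 200 bases of the annotated transcript of H4C3. Of the last 26 bases of that transcript 20 are A.

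**Figure D4:**
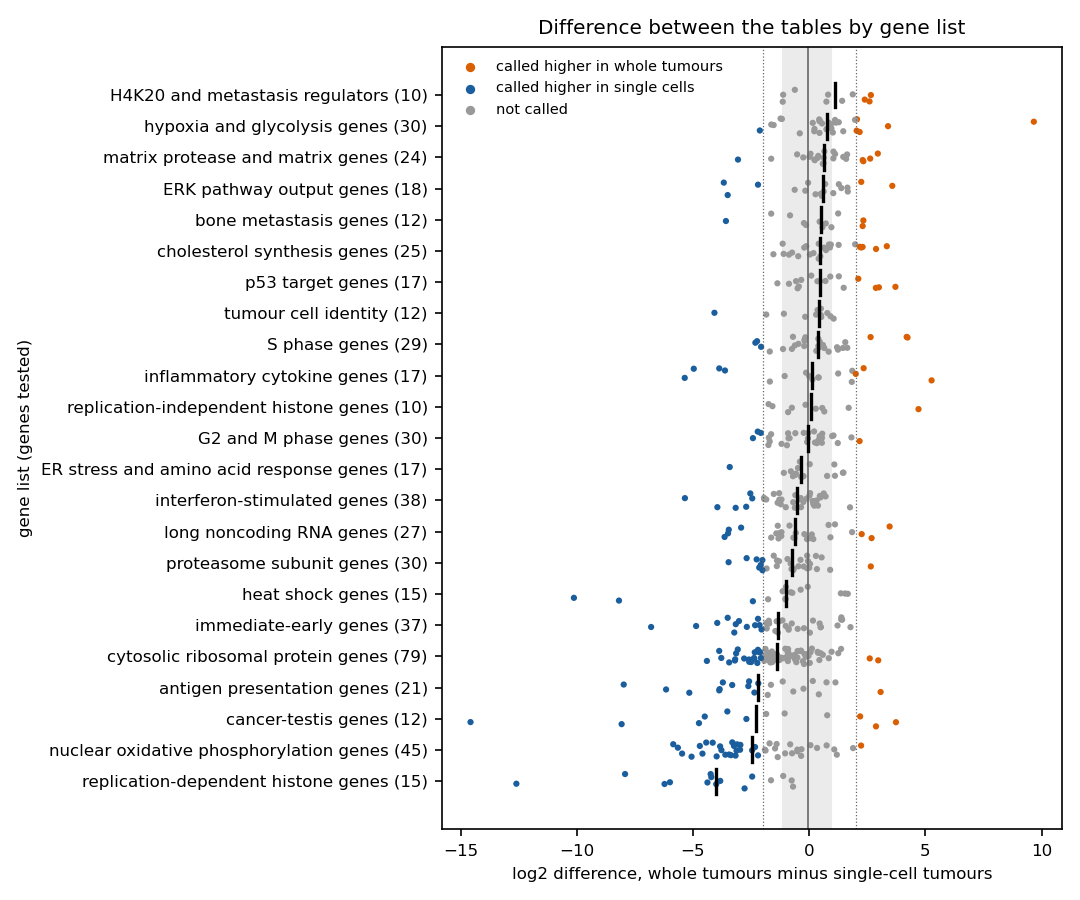
Log2 difference (whole tumours minus single-cell tumours) of each tested gene in the 23 pathway lists with at least 8 genes tested, sorted by median (black bar). Orange and blue points were called, grey points were not; the grey band spans the middle quartiles of all 13926 genes and the dotted lines mark 4-fold. Histone, oxidative phosphorylation, cancer-testis and antigen presentation lists have medians below -2.

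Interferon-stimulated genes differed in a few members. Of 38 tested, 6 (15.8%, against 14.7% of all genes) were called higher in the single cells and 0 in the whole tumours, and the median was -0.51. ISG15, a ubiquitin-like modifier, stood at 23.1, 32.9, 37.6, 31.5 and 33.9 CPM in the whole tumours and 1473, 1037 and 1377 CPM in the single-cell tumours, with no overlap and a log2 difference of -5.35 ± 0.18 (SE, adjusted p = 5.67e-09). IFITM3, a membrane protein that restricts viral entry, had 248 ± 29.8 against 3838 ± 104 CPM, but reads can be shared with related IFITM genes. The other 32 genes of the list were not called. Of 21 antigen presentation genes tested, 11 (52.4%, against 14.7% of all genes) were called higher in the single cells and 1 in the whole tumours, and the median was -2.19. Of these calls, 2 are of genes that passed the filter through the single-cell tumours alone; 9 of the other 19 were called, with a median of -1.78. CD74, the class II invariant chain, stood at 31.6, 35.2, 43.1, 33.4 and 31.9 CPM in the whole tumours and 568, 306 and 505 CPM in the single-cell tumours. HLA-DRA, a class II chain, had 0.715 ± 0.167 against 25.6 ± 5.58 CPM, and the peptide-loading protein TAPBP had 38.3 ± 7.07 against 381 ± 134 CPM. B2M, the shared light chain of class I, was not called (537 ± 47.9 against 482 ± 70.7 CPM). Polymorphic HLA genes can lose reads to mismatches, so their levels are uncertain. In the repeat 11 antigen presentation genes and 11 interferon-stimulated genes were called higher in the single cells.

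Hypoxia and glycolysis genes had one of the higher medians, 0.75, with 5 of 30 (16.7%, against 8.93% of all genes) called higher in the whole tumours and 1 in the single cells. The count of 5 was 3 without whole tumour 813, with RLE scaling, in DESeq2 and with the length term. The glucose transporter SLC2A1 stood at 724, 781, 628, 1133 and 639.6 CPM in the whole tumours and 193, 142 and 185 CPM in the single-cell tumours, without overlap. NDRG1, a hypoxia-induced gene, stood at 2038, 2004, 2038, 3113 and 1933 CPM in the whole tumours and 606, 593 and 407 CPM in the single-cell tumours, highest in whole tumour 813; its log2 difference of 2.06 fell below the limit without that tumour (1.92) or without single-cell tumour 3 (1.90). GAPDH (3491 ± 426 against 332 ± 65.9 CPM) and ALDOA (1525 ± 203 against 1.86 ± 1.06 CPM), which encode glycolytic enzymes, had log2 differences of 3.39 and 9.67; at least 50% of the last 500 bases of both genes lies under another gene's exons, so these 2 differences depend on how overlapping reads were assigned. TPI1, another glycolytic enzyme, was the member called higher in the single cells (1065 ± 102 against 4639.6 ± 195 CPM). ENO1, the enolase that led the single-cell table, had 5929 ± 625 against 17096 ± 3454 CPM and was not called.

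Among secreted proteases and matrix genes, 4 of 24 tested (16.7%, against 8.93% of all genes) were called higher in the whole tumours and 1 (4.17%, against 14.7%) in the single cells, with a median of 0.62. MMP14, a membrane-anchored collagenase activator, stood at 1076, 1095, 1249, 1544 and 1216 CPM in the whole tumours and 211, 163 and 105 CPM in the single-cell tumours. PLAU, the urokinase protease, had 746 ± 73 against 151 ± 49.5 CPM, and the collagenase MMP1 had 123 ± 26.6 against 24.5 ± 1.66 CPM. TIMP1, an inhibitor of these metalloproteinases, was the member higher in the single cells (256 ± 49.1 against 2143 ± 377 CPM). MMP1 and CXCR4 (67.7 ± 11.4 against 13.7 ± 7.42 CPM) were also the 2 of 12 bone metastasis genes (16.7%, against 8.93% of all genes) called higher in the whole tumours. PTHLH, which encodes parathyroid hormone-related protein, was the 1 (8.33%, against 14.7%) called higher in the single cells (2.44 ± 0.378 against 29.3 ± 12.4 CPM).

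Cholesterol synthesis genes and p53 targets were called toward the whole tumours alone, and ERK output genes in both directions. Of 25 cholesterol synthesis genes, 5 (20%, against 8.93% of all genes) were called higher in the whole tumours and 0 in the single cells (median 0.48). They include the transcription factor SREBF2 (163 ± 16.7 against 22.1 ± 8.33 CPM) and lanosterol synthase LSS (122 ± 6.78 against 25.8 ± 1.59 CPM); the other 20 were not called. With the length term 2 of the 25 were called. Of 18 ERK output genes, 2 (11.1%) were called higher in the whole tumours and 3 (16.7%) in the single cells, near the shares of all genes. EPHA2, a receptor tyrosine kinase, stood at 446, 451, 467, 459 and 477 CPM in the whole tumours and 38.5, 39.2 and 38 CPM in the single-cell tumours, while SPRY1, a feedback inhibitor, had 30.5 ± 5.04 against 390.0 ± 175 CPM. The kinase gene MAP2K1 (86.6 ± 10.3 against 13.7 ± 5.26 CPM) was called higher in the whole tumours. Of 17 p53 targets, 4 (23.5%, against 8.93% of all genes) were called higher in the whole tumours and 0 in the single cells. The 4 include the pro-apoptotic BAX (84.6 ± 12.8 against 6.5 ± 3.64 CPM) and the metabolic regulator TIGAR (7.32 ± 0.544 against 0.898 ± 0.606 CPM).

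Few proliferation genes were called, while their summed levels, taken without the composition factor, did not overlap between the tables. For S phase genes the sums lay close, at 2159 CPM in whole tumour 813 and 2058 CPM in single-cell tumour 2. The composition factors of these 2 tumours were 1.10 and 0.830, so the S phase separation rests on the scaling. S phase genes summed to 2159 to 3003 CPM of all counts in the whole tumours and 1759 to 2058 CPM in the single-cell tumours, and G2 and M phase genes to 3123 to 4501 and 5460 to 6092 CPM. S phase genes had a median of 0.39 with 3 (10.3%) called each way. G2 and M phase genes had a median of -0.07, with 1 (3.33%) called higher in the whole tumours (2 without single-cell tumour 3) and 3 (10%) in the single cells. The shares of all genes were 8.93% in the whole tumours and 14.7% in the single cells. BIRC5, the apoptosis inhibitor survivin, had 52.1 ± 10.6 against 279 ± 29.5 CPM, and the kinetochore protein CENPF had 146 ± 23.1 against 679 ± 89.6 CPM, both called higher in the single cells. The mitotic kinesin KIF20A (97.3 ± 13.2 against 21.6 ± 11.4 CPM) and the cell cycle transcription factor E2F1 (63.1 ± 6.16 against 10.1 ± 1.93 CPM) were called higher in the whole tumours, KIF20A not without single-cell tumour 1 (log2 difference 1.85). TYMS and MCM2 were called higher there as well (log2 differences 4.23 and 4.20), with 3′ ends that overlap another gene. Without the composition factor the G2 and M phase median was 0.40, and that of ER stress genes went from -0.34 to 0.14, so the direction of both lists rests on the scaling. With each cell weighted equally, the interferon median was 0.03.

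Several single genes stood out at the top of the single-cell table. SPANXB1, a cancer-testis gene on the X chromosome, stood at 0.369, 0.314, 0.565, 0.862 and 0.470 CPM in the whole tumours and 12076, 11970.4 and 13688 CPM in the single-cell tumours; its family members are near-identical copies, so the level is uncertain. The family members SPANXC (16.5 ± 5.35 against 442 ± 51.2 CPM) and SPANXD were also called higher in the single cells, as was FAM133A (10.6 ± 2.02 against 69 ± 9.29 CPM), whereas MAGEC1 was higher in the whole tumours (21.8 ± 4.61 against 4.81 ± 3.1 CPM, not called without single-cell tumour 1, at 1.84). Of 12 cancer-testis genes tested, 6 (50%, against 14.7% of all genes) were called higher in the single cells and 3 (25%, against 8.93%) in the whole tumours. Their median was -2.28. Of the 12, 6 have copies elsewhere, and 1 of the 6 higher in the single cells passed the filter through those tumours alone. With the length term 4 and 2 were called and the median was -0.72, and in the 3 genes free of overlap or copies the median was 0.78. PTMA, which encodes prothymosin alpha, had 924 ± 48.9 against 13184 ± 926 CPM. The nuclear long noncoding RNA MALAT1 had 696 ± 201 against 8685 ± 388 CPM, CYTOR had 127 ± 20.5 against 1399 ± 399 CPM, and SNHG29 went the other way (269 ± 22.3 against 24.5 ± 13 CPM). Over 27 long noncoding RNAs tested on the list, 4 (14.8%) were called higher in the single cells and 3 (11.1%) in the whole tumours. Both shares were near those of all genes, 14.7% and 8.93%. The stress-inducible chaperone HSPA1A was listed at 0.0713 CPM in the whole tumours and 83.7 CPM in the single cells, but it has a near-identical copy, HSPA1B, and its value is uncertain. The mitochondrial co-chaperone HSPE1 had 45.3 ± 9.94 against 243 ± 13.2 CPM and MT2A, a metallothionein, 414 ± 69.9 against 3084 ± 148 CPM; of 4 metallothionein genes tested, MT1F was the other called higher there (2.68 ± 0.448 against 14.9 ± 6.36 CPM), and 0 were called higher in the whole tumours. With the length term neither was called (-1.67 and -1.89), and the median of the 4 went from -2.05 to -1.29. Of 16 small structural RNAs 5 were tested. RNU4ATAC, VTRNA1-1 and SNORD3C, each below 0.05 CPM on average in the whole tumours, passed the filter through the single-cell tumours alone, so their calls follow from it; the other 2 were not called, but both were without whole tumour 815.

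Some fibroblast and endothelial markers were called higher in the whole tumours, and none in the single cells. The 18 fibroblast markers summed to 945 to 1467 CPM of all counts in the whole tumours and to 198 to 246 CPM in the single-cell tumours; 6 were tested, 2 (33.3%, against 8.93% of all genes) were called higher in the whole tumours, and 12 were listed only in the bulk table, 7 of them at 1 CPM or more. COL1A1, a chain of type I collagen, stood at 285, 437, 628, 215 and 354 CPM in the whole tumours and 2.54, 4.66 and 3.54 CPM in the single-cell tumours, with a log2 difference of 6.76 ± 0.44 (SE, adjusted p = 4.19e-07), and gave a large share of that sum. COL1A2, the other chain of that collagen, stood at 66, 86.9, 120.0, 53.7 and 78 CPM of all counts in the whole tumours, and the type III collagen COL3A1 at 65, 101, 119.7, 57.2 and 72.2 CPM; neither was in the single-cell table. PDGFRB, a fibroblast and pericyte receptor, had 7.0 ± 0.555 against 0.963 ± 0.871 CPM. The type V and VI collagen genes COL5A1 and COL6A3 were not called.

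The 14 endothelial markers summed to 293 to 356 CPM in the whole tumours and 58.4 to 90.4 CPM in the single-cell tumours. Of 5 tested, 2 (40%, against 8.93% of all genes) were called higher in the whole tumours: the endothelial receptors TIE1 (59.6 ± 11.5 against 8.46 ± 6.0 CPM) and ROBO4 (87.9 ± 6.02 against 21.5 ± 9.58 CPM). ROBO4 has a 3′ end that overlaps another gene and was not called without single-cell tumour 1 (log2 difference 1.73). With RLE scaling, in DESeq2, with the length term and in the repeat 1 of the 5 was called. PECAM1, a defining endothelial marker, was listed only in the single-cell table, at 16.4 CPM on average. The 20 leukocyte markers summed to 150 to 188 CPM and 99.0 to 159 CPM, so the groups overlapped; CSF1R was higher in the whole tumours (11 against 2.61 CPM, not called without single-cell tumour 2, at 1.65) and ADGRE1 in the single cells (4.23 against 27.6 CPM). Lymphocyte markers summed to 0.208 to 0.457 CPM in the whole tumours and had no entry in the single-cell table, which lists only genes with a count in at least 20 cells. Of 12 keratinocyte markers 10 were listed only in the bulk table, KRT14 highest among them (27.8 CPM on average). KRT10 was called higher in the single cells (28 ± 4.57 against 184 ± 14.7 CPM), the other tested marker was not called, and with KRT10 included the list summed to 57.3 to 106 CPM in the whole tumours and 145 to 168 CPM in the single-cell tumours. Both tables list human genes, and no label or header says whether mouse reads were removed before counting. The part of mouse reads in these values was not tested.

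The other host lists summed to at most 350 CPM, with the mammary epithelium list the highest. Of its 8 genes 1 was tested and was not called. The 6 listed only in the bulk table were each below 1 CPM, so the sum is nearly all that 1 gene. Whether its reads come from tumour or host cells was not tested. Smooth muscle and pericyte markers summed to 51.9 to 60.9 CPM in the whole tumours and 14.6 to 19 CPM in the single-cell tumours, mammary epithelium markers to 278 to 350 and 137 to 199 CPM, and nerve markers to 44.6 to 56.7 and 17.5 to 38.7 CPM. Skeletal muscle markers summed to 30.4 to 43.7 and 14.1 to 25.7 CPM, and adipocyte markers to 5.79 to 8.12 and 7.38 to 20.2 CPM, overlapping in the latter. Erythroid markers reached 2.30 to 3.26 CPM in the whole tumours and had no entry in the single-cell table. Of the 12 genes tested in these lists, the myelin protein gene PRX was called higher in the whole tumours (9.89 ± 1.52 against 1.02 ± 0.297 CPM) and CFD, which encodes complement factor D, in the single cells (0.538 ± 0.185 against 14.5 ± 11.1 CPM).

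The genes with the largest differences at a mean log2 CPM of at least 5 were of unlike kinds on the 2 sides. Among the 15 highest in the whole tumours, with log2 differences of 6.05 to 9.67, 7 had at least 50% of their last 500 bases under another gene's exon or made of sequence repeated in other genes, and 3 were free of any such overlap or copy. The 15 include the RNA-binding protein PCBP1 (216 against 1.92 CPM), the tubulins TUBA1B (415 against 5.75 CPM) and TUBA1C (328 against 3.68 CPM), and the XPA-binding protein XAB2 (104 against 0.753 CPM). In single-cell tumour 1, PCBP1 (0.0908 CPM) and XAB2 (0.182 CPM) lay below the limit of the filter on low counts. They and others of the 15, such as SRCAP and HSPG2 (0 CPM in that tumour), passed the filter through the whole tumours alone. Among the 15 highest in the single cells, with log2 differences of -15.96 to -5.74, 0 had such an end and 7 were free of any overlap or copy; H4C3, H1-4, FOSB, AREG and TFF3 were among these 7. PYURF and SLC5A3 had 0 counts in all 5 whole tumours and were at least 3182-fold and 1792-fold higher in the single cells, against a floor of 3 counts per library. Part of their exonic bases (15.9% and 2.36%) lies under an exon of another gene on the same strand. How reads there were assigned is not known, so both differences are uncertain. PYURF, SLC5A3 and the other tested genes at 0 in every whole tumour, 72 in all, passed the filter through the single-cell tumours alone, which fixed their direction.

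Among genes without such overlap or copies, the signalling and chromatin genes SRC (60.5 ± 4.28 against 1.26 ± 1.12 CPM) and TRIM28 (573 ± 68.6 against 15.5 ± 2.99 CPM) and the glucosidase subunit GANAB (623 ± 29.2 against 20.5 ± 4.18 CPM) were called higher in the whole tumours; these 3 were chosen after their values were seen. That subset held 5323 protein-coding genes, of which 418 (7.85%) were higher in the whole tumours and 373 (7.01%) in the single cells. Where at least 50% of the last 500 bases lay under an exon of the other strand only, 134 of 668 (20.1%) were higher in the whole tumours and 35 (5.24%) in the single cells.

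Gene length and class moved with the direction. Protein-coding genes of 500 to under 1000 exonic bases were called higher in the single cells in 57 of 95 cases (60%, median log2 difference -2.45), and those of 1000 to under 2000 bases in 213 of 755 (28.2%, median -0.85). From 2000 bases on, the median lay between 0.07 and 0.36. Processed pseudogenes, intronless copies of mRNAs, were higher in the single cells in 575 of 906 cases (63.5%, median -3.33), and long noncoding RNAs in 484 of 1206 (40.1%). Among those that reached the limit of the filter in 3 whole tumours the counts were 171 of 480 (35.6%, median -1.09) and 303 of 1021 (29.7%), and 51 of 89 (57.3%) for protein-coding genes of 500 to under 1000 bases. Adding length to the fit left 1228 genes higher in the whole tumours (8.82%) and 1661 (11.9%) in the single cells.

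**Figure D5:**
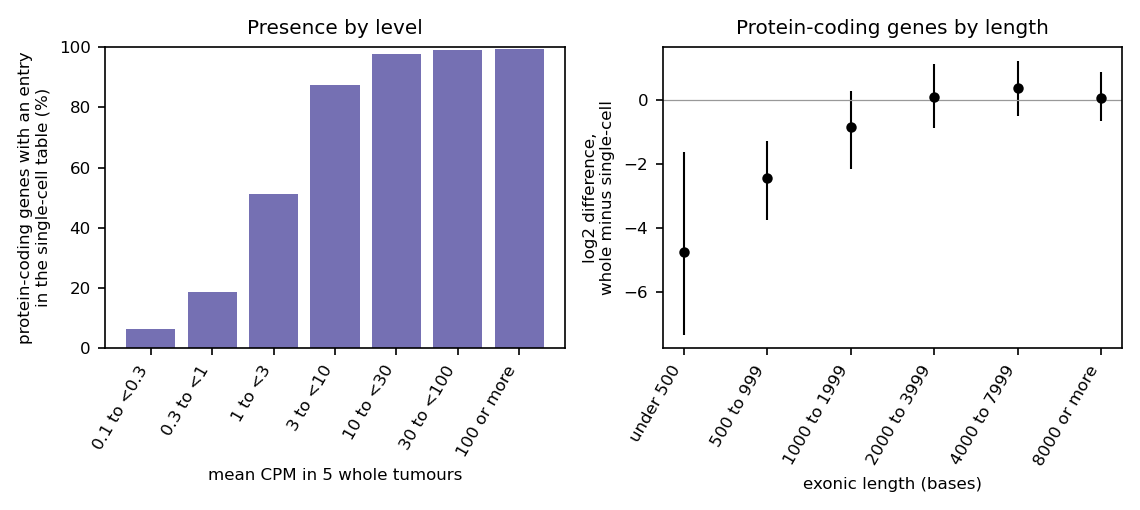
Left: percent of nuclear protein-coding genes of the bulk table with an entry in the single-cell table, by mean CPM in 5 whole tumours. Right: median log2 difference (whole minus single-cell tumours) of protein-coding genes by exonic length, with bars for the middle quartiles. Presence climbs from 6.31% to 99.4% with level, and the shortest genes have the lowest median, -4.74 in the 9 genes under 500 bases.

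Most genes missing from the single-cell table were weakly expressed. Every gene in that table had a count in at least 20 of the 1569 cells, whereas the bulk table lists genes at 0. A nuclear protein-coding gene had an entry in the single-cell table in 6.31% of cases at 0.1 to 0.3 CPM of the whole tumours, 51.3% at 1 to 3 CPM, 97.7% at 10 to 30 CPM and 99.4% (2169 of 2181) at 100 CPM or more. At 1 CPM or more, 1763 genes were in the bulk table alone and carried 7.45% of its counts; 25 of these were mitochondrial, 881 nuclear protein-coding and 338 long noncoding. Of 254 at 10 CPM or more, 116 were nuclear protein-coding, and in 56 of these (48.3%) at least 50% of the last 500 bases lay under another gene's exon, against 7.57% of 9101 shared protein-coding genes at that level. The highest were MATR3 (399 ± 22.9 CPM), the phosphatase PTP4A1 (213 ± 14.7 CPM) and CDK5RAP3 (197 ± 33.9 CPM); the cytokine TGFB1 was also on the list (172 ± 14.3 CPM). The single-cell table holds a MATR3 name with a suffix that was not matched, so an unmatched name is not an absent transcript.

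The mitochondrial genome was the largest block found in 1 table. Its 37 genes took 5.53% to 6.77% of the counts in the whole tumours, with MT-CO1, a subunit of complex IV, at 12679.7, 12226, 11578, 15212 and 12625 CPM and MT-ND4 of complex I at 6886, 6448, 6629, 8029.5 and 6320.2 CPM, and 0 of the 37 had an entry in the single-cell table. Nuclear copies of mitochondrial genes showed the reverse. The 32 copies in both tables summed to 113 to 183 CPM of all counts in the whole tumours and to 6057, 7740.5 and 9469.7 CPM in the single-cell tumours; 25 were tested, 21 were called higher in the single cells and 0 in the whole tumours. Of the 25, 12 passed the filter through the single-cell tumours alone; 9 of the other 13 were called. MTATP6P1 alone stood at 0.583, 0.669, 0.565, 1.04 and 0.649 CPM in the whole tumours and 7529, 8672 and 10208 CPM in the single-cell tumours, while MTCO1P12 was not called (128 ± 27 against 458 ± 53.6 CPM). Both are near-identical to the mitochondrial genes they derive from, so reads of one can be counted for the other.

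The single-cell table held 545 genes with no match in the bulk table, of which 121 are protein-coding, 190 long noncoding and 78 have no name in the annotations used; 430 of the 545 reached 1 CPM. The highest were RBM8A, a component of the exon junction complex, at 306, 408 and 443 CPM, AATF at 532, 276 and 284 CPM, and the proteasome subunit PSMB3 at 324, 346 and 419 CPM. Of the 121 protein-coding genes, 27 lie on chromosome 1, 26 on chromosome 17 and 17 on chromosome 6. That is 2.25%, 3.81% and 2.7% of the protein-coding genes of the single-cell table there. Chromosome 21 had the largest share, 4.39%, from 5 genes. AATF was the highest of the 3 named genes in single-cell tumour 1 and the lowest in the other two.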

How the data were processed

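RNA-seq of 5 whole CTRL tumours and single-cell RNA-seq of 3 CTRL tumours were compared through the authors' 2 deposited tables of raw counts per gene. The submitters' processing notes name Trim Galore, STAR, featureCounts, hg38 and hg19, without versions or roles; strand setting, use of molecular identifiers and the treatment of multimapping or mouse reads are not given in the sources used here. Columns were assigned by their names: CTRL tumour numbers in the bulk table, and names starting with VC, split by their ending, in the single-cell table. These endings could not be tied to GEO's replicate numbers, so single-cell tumours are numbered by the ending. Labels describe separate tumours; p-values measure the spread between them only.

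Single-cell counts were summed per tumour. Bulk identifiers were given symbols from the reference tables (51996 of 57820; the rest carried 0.666% of counts), and single-cell names were matched by symbol, with hyphens restored and alternative names tried, since 12883 of 14460 matched as written. Genes passing filterByExpr were fitted with edgeR 4.0.16 (R 4.3.3, TMM scaling, quasi-likelihood test) on the 8 CTRL tumours with the table as the only term; no batch within a table is labelled. CPM of shared genes uses TMM-scaled libraries, with factors of 1.10 to 1.17 for the whole tumours and 0.744 to 0.866 for the single-cell tumours; genes of 1 table and summed lists use unscaled totals. Exonic lengths and overlaps come from GENCODE 29, promoters from RefSeq. Alternatives used limma 3.58.1 and DESeq2 1.42.0; the steps were tested on simulated data, and figures were drawn with matplotlib 3.10.9.

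Named genes were the 15 with the largest difference in each direction at a mean log2 CPM of at least 5, the 10 in each direction of the length-adjusted fit, members of 27 pathway and 11 host lists, the highest genes of each table and those found in 1 table. Members and lists were chosen with earlier results of these data known. Results without a test are descriptions of these libraries. Values of a few genes are not reported here.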

Additional observations from a re-analysis of the deposited data

Results flagged for a closer look

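Among 154 sets of 5 whole-tumour values (named genes and summed lists), 13 had 1 tumour standing apart by Dixon's gap ratio. Chance alone gives about 1 such case in 20 sets.

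Whole tumour 813 was the one that stood apart in several of them. Its G2 and M phase genes summed to 3123 CPM of all counts, the lowest of the 5 tumours, whereas the others lay between 4365 and 4501 CPM. The kinetochore gene CENPF (105.6 CPM, next lowest 152.9) and the mitotic kinesin KIF20A (73.8 CPM, next lowest 101.8) were lowest there. The long noncoding RNA list summed to 3035 CPM in that tumour and to at least 3503 CPM in the others. The hypoxia gene NDRG1 was highest there (3113 CPM, next 2038), as were ZFP36L1 (736 CPM, next 528), MTATP6P1 (1.04 CPM, next 0.669) and TGFB1 (198 CPM, next 169). The sum of S phase genes was also lowest in tumour 813 but was not among the flagged sets. It was 2681, 2843, 3003, 2159 and 2839 CPM in tumours 801, 803, 804, 813 and 815.

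Whole tumour 815 stood apart in 4 RNAs. H4C3 was at 2.84 CPM, with the next tumour at 0.973, and H1-4 at 9.67 CPM, with the next at 4.55. SNORD3A, a small nucleolar RNA of ribosomal RNA processing with near-identical copies, was at 140.1 CPM, with the next at 8.88; its log2 difference was -2.30 and not called with all tumours, and -5.14 and called without this one. The mitochondrial ribosomal RNA MT-RNR1 was at 3246 CPM of all counts, with the next at 1764. The other mitochondrial ribosomal RNA, MT-RNR2, did not set that tumour apart (11796 CPM, and 11398 CPM in tumour 813). The replication-dependent histone genes summed to 228, 235, 244, 199 and 275 CPM in tumours 801, 803, 804, 813 and 815, which did not set tumour 815 apart by the same ratio. That sum in tumour 815 was still far below the 6844 to 8808 CPM of the single-cell tumours. The 2 sums cover unlike genes, since 12 of the list are only in the single-cell table and 7 only in the bulk table. H4C3, at 5461 to 7895 CPM with the composition factor, gives a large part of the single-cell sum. The cause of either pattern was not tested. SNORD3C, a related small nucleolar RNA, was at 0.0836 CPM in whole tumour 803, a few reads, and at 0 in the other 4.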

How the results depend on the processing

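The total of 3292 called genes stayed between 2456 and 3758 under RLE scaling, DESeq2, limma voom, no filter on low counts, no composition factor, equal weight for each cell, cells with at least 20000 counts, the length term, percentile ranks and symbols as written, and between 3208 and 3575 when 1 tumour was left out. Leaving out 1 tumour gave 1210 to 1528 genes higher in the whole tumours and 1964 to 2219 in the single cells. No composition factor gave 1986 genes higher in the whole tumours, and equal weight per cell gave 727 in the single cells. Testing against 4-fold itself (glmTreat) gave 2014 (649 and 1365). Protein-coding genes alone gave 2018 of 11547 (17.5%, 880 in the single cells), and those without overlap or copies 791 of 5323 (14.9%, 418 and 373). Fewer genes were tested in both, and the share called was also below the 23.6% of all genes. These 2 subsets and voom were chosen after seeing the data. The rank correlation was 0.725 with bulk counts per exonic length, 0.687 with both tables per length, 0.604 among genes of at least 10 CPM in both, and 0.766 to 0.780 with 1 tumour left out. Genes only in the bulk table numbered 7200, 434 and 254 at 0.1, 5 and 10 CPM, and 1743 to 1790 with 1 tumour left out; symbols as written left 2122 single-cell genes unmatched, and 545 was the count with each tumour left out. Of 2411 values for 121 named genes, 2275 kept direction and side of the limits, 122 lost the call, 8 gained it and 6 reversed. All 6 were of genes not called: with the length term VIM (-0.16), B2M (-0.30), H2BC5 (0.82), PEBP1 (0.076) and SNORD3A (0.0215), and B2M at -0.0149 in the repeat tumours. Calls without the composition factor went from 3 each way to 5 and 0 for S phase genes, from 3 to 0 in the single cells for G2 and M phase genes, and from 3 and 2 to 5 and 4 in the whole tumours for cytokine and ERK genes; the repeat had 7 long noncoding RNAs higher in the single cells against 4. Where an alternative changed a value without a stated reason, the cause was not tested. No paired analysis was possible because the 2 kinds of tumour share no replicate numbers. Presence in the single-cell table rose with level: 97.7% of protein-coding genes at 10 to 30 CPM of the whole tumours had an entry there, and 18.6% of those at 0.3 to 1 CPM. The part of depth in this was not tested.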

Other observations

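In the ER stress and amino acid response list 1 of 17 genes was called: SDF2L1, a chaperone cofactor of the endoplasmic reticulum, at 10.4 ± 2.12 against 112 ± 32.3 CPM, with a log2 difference of -3.42 ± 0.22 (SE, adjusted p = 3.15e-07). With the length term it was not called (-1.89). The other 16, which include the main regulators of the unfolded protein response, were not called. The heat shock list had 3 of 15 (20%, against 14.7% of all genes) called higher in the single cells and 0 in the whole tumours, with a median of -1.0. Of the 3, 2 passed the filter on low counts through the single-cell tumours alone. Without the composition factor 2 genes were called in each direction, with a median of -0.51.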
